A study of Arabidopsis thaliana with 6 samples.

Results

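The genes of very-long-chain fatty acid elongation were followed in roots of the Arabidopsis line myb68 myb84 and of its wild type Col. They were chosen by gene identifier from a list of 30 among the 32833 identifiers counted. The list holds the 21 ketoacyl-CoA synthase (KCS) genes, the 5 genes of the other elongase subunits (KCR1, KCR2, PAS2, PTPLA and CER10), CER2 with its relatives CER26 and CER26-like, and PAS1. All 30 identifiers were present in each library. RNA came from the uppermost 2 cm of primary roots of untreated plants aged 18 days, kept on plates in continuous light at 22 °C. The myb68 myb84 group is a double mutant named for a pair of R2R3 MYB transcription factor genes, the WT group is Col, and each had 3 biological replicates of at least 40 pooled plants. The study asked how these factors control suberin deposition. The mutant alleles are not described in the sources used here.

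Very-long-chain fatty acids are built at the endoplasmic reticulum from plastid-made acyl chains, in rounds of a 4-step cycle. A KCS enzyme condenses the chain with malonyl-CoA and sets which chain length and tissue are served, while the later steps, by a ketoacyl reductase, a dehydratase and an enoyl reductase, are shared by all KCS enzymes. The products enter root and seed coat suberin, the cuticular wax of the shoot epidermis, seed oil and sphingolipids. Suberin is the lipid polyester of the endodermis and of the cork (phellem) that encloses old roots.

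Total counts ran from 19446419 to 55907128 per library. MYB84 was lower in the line labelled myb68 myb84, with 5.94, 4.90 and 7.17 CPM (counts scaled to a common library size, after TMM normalisation) in the mutant and 8.96, 7.84 and 12.95 CPM in WT (adjusted p = 0.0442, edgeR). MYB68 was not, with 60.8, 67.7 and 74.8 CPM in the mutant and 49.3, 49.5 and 62.3 CPM in WT (adjusted p = 0.0613). MYB84 kept 61.6% of its WT level and the alleles are not described, so transcript counts cannot check the label for either gene. The design text once names MYB86 where the labels name myb84. The 4 root markers were present. PYK10 averaged 12587 CPM in the mutant and 13674 CPM in WT (not passed), EXP7 averaged 49.1 CPM in the mutant and 34.1 CPM in WT (called higher, adjusted p = 0.0256), and COBL9 averaged 17.02 CPM in the mutant and 13.2 CPM in WT (called higher, adjusted p = 0.0484). NRT2.1 did not pass. The 4 seed storage markers summed to at most 0.152 CPM in any library. Markers of green shoot tissue summed to 3287, 3759 and 3328 CPM in the mutant libraries and 2610, 2811 and 1718 CPM in the WT libraries. Of these 6 markers, 4 were called higher in the mutant, beside 4.66% of all genes tested.

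The upstream sequences of 4 lowered KCS genes are shown because they lost the most CPM per kilobase of exon of all KCS genes, although KCS3 and KCS5 fell by larger factors than KCS20, KCS10 and KCS1, and because the mutated genes encode MYB factors. Each line is the 250 bases before the annotated transcript start, 5′ to 3′ on the strand of the gene, read from the TAIR10.1 genome of RefSeq. No other annotated gene reaches into these 4 windows. Capitals mark matches to any of 4 words of the kind bound by many R2R3 MYB proteins, searched on both strands: the word ACCTAAC, the word ACCAAAC, the word ACCTACC and the word ACCAACC.
KCS6 (chr1:25715025-25715274, minus strand): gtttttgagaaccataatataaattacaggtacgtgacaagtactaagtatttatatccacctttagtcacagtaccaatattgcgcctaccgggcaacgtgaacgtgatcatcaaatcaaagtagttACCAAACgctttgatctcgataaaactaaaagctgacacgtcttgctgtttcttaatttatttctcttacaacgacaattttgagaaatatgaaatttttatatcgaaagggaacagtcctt
KCS10 (chr2:11173279-11173528, minus strand): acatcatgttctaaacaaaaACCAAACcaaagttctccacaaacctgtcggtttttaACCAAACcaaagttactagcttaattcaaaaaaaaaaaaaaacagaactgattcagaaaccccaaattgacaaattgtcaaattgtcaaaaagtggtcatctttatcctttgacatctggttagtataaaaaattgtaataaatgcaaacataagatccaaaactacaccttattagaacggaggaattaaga
KCS20 (chr5:17585273-17585522, plus strand): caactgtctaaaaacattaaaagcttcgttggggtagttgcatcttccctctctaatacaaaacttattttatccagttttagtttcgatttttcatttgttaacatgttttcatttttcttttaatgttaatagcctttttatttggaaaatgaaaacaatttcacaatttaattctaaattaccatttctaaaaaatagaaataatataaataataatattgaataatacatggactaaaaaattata
KCS1 (chr1:59216-59465, minus strand): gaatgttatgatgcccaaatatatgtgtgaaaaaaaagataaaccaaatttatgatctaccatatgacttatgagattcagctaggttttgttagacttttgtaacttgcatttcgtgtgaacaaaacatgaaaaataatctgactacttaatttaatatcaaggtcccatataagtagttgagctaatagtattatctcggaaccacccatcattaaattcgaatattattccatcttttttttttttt
The KCS6 window holds ACCAAAC once, 122 to 116 bases before the start. The KCS10 window holds it at 230 to 224 and at 193 to 187 bases before the start. The KCS20 and KCS1 windows hold none of the words. Of the 6 KCS genes called lower, 2 have a match in this window, and 9 of the 30 genes do, against 13.7% of 27443 protein-coding genes. No test was made of this share, and a word match is not a binding site.

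Every elongation gene that passed the test was lower in myb68 myb84. Of the 30 genes, 25 had enough counts to be tested, 7 of them fell, 0 rose and 18 did not pass at an adjusted p of 0.05 (edgeR quasi-likelihood test, Benjamini-Hochberg over all genes). Among all 20941 genes tested, 8.30% were called, 3.65% lower and 4.66% higher. The log2 fold change, myb68 myb84 over WT, was negative in 22 of the 25 and in 10577 of the 20941. Its median was -0.30 over the 25 and -0.0026 over all genes tested. The tested genes were picked in part by their level, so 25 is not the whole list. Before adjustment, 13 had a p under 0.05 as lower and 1, PTPLA, as higher, beside 2261 lower and 2354 higher of the 20941 genes. DESeq2 called 10 lower and 0 higher, and limma-voom 9 lower and 0 higher. Libraries of the genotypes were fully apart for 13 of the 25, for 12 of them with the mutant lower, beside 27.2% of all genes tested that were apart and 13.2% that were apart with the mutant lower. In whole root segments, fewer cells of a type and less RNA per cell cannot be told apart.

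**Figure D1:**
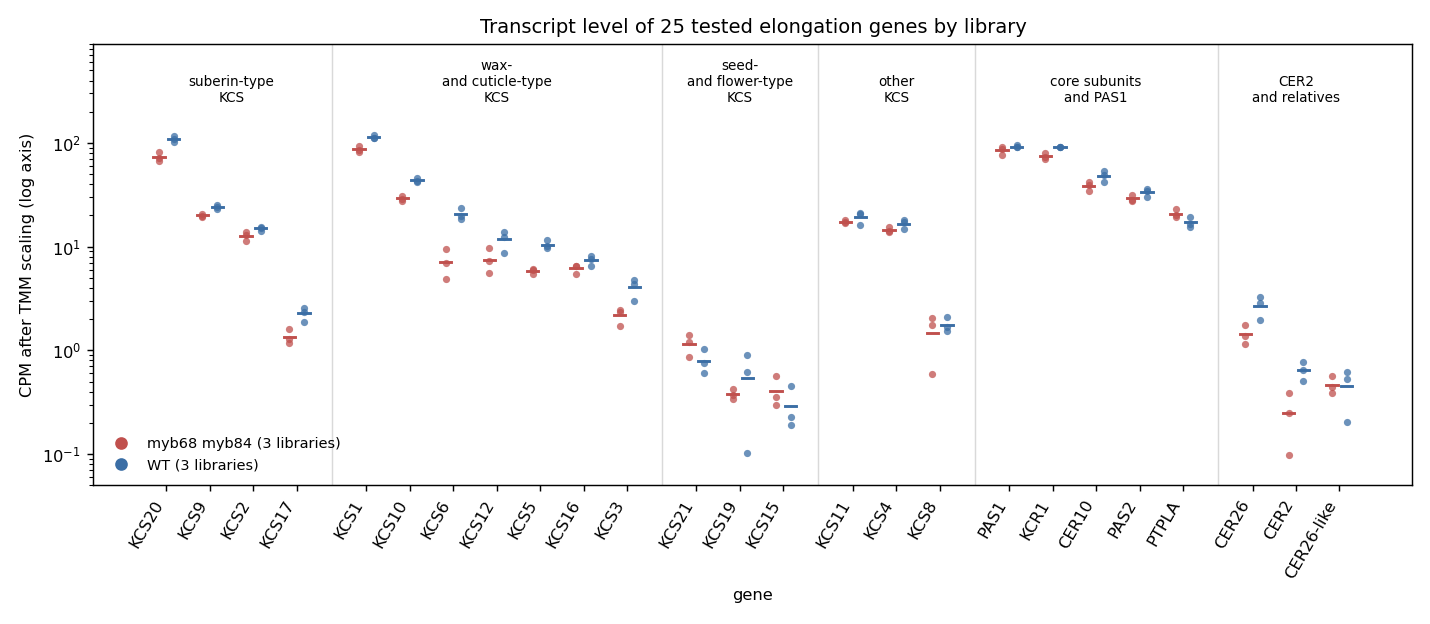
Level of each of the 25 tested genes in CPM after TMM scaling, on a log axis, with a point per library and a bar at the mean of 3 libraries, myb68 myb84 left of WT for each gene. KCS20, KCS1, PAS1 and KCR1 lie highest, KCS6 shows the widest gap between the genotypes, and the seed- and flower-type genes lie near or below 1 CPM.

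Among the suberin-type synthases, KCS20 fell and the others did not pass. KCS20 (AT5G43760, chromosome 5, 17585523 to 17588733, plus strand, 2 exons), which elongates chains for root suberin and wax together with KCS2, had 67.0, 70.9 and 81.1 CPM in the mutant libraries and 110.1, 102 and 116 CPM in the WT libraries. Each mutant library lay below every WT library. It fell to 66.8% of WT (log2 fold change -0.58, standard error (SE) 0.08, adjusted p = 0.000944). KCS2 (AT1G04220), its closest relative, had 12.9, 11.3 and 14.0 CPM in the mutant and 15.6, 15.3 and 14.1 CPM in WT. The groups nearly touched, and the log2 fold change of -0.23 did not pass (adjusted p = 0.236, 95% interval -0.47 to 0.0040). KCS9 (AT2G16280), which makes precursors of suberin, wax and sphingolipids, had 20.9, 19.9 and 19.5 CPM in the mutant and 25.1, 22.9 and 24.1 CPM in WT. The groups did not overlap, and the log2 fold change of -0.26 did not pass (adjusted p = 0.0847). KCS17 (AT4G34510), reported to act in seed coat suberin, was low, at 1.596, 1.28 and 1.18 CPM in the mutant and 1.89, 2.59 and 2.34 CPM in WT (log2 fold change -0.74, SE 0.27, adjusted p = 0.116). All 4 suberin-type genes were thus tested, with 1 call, and their median log2 fold change was -0.42. In all 4 the groups did not overlap and the mutant was lower, beside 13.2% of all genes tested.

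KCS2 and KCS20 share 84.1% of aligned coding bases, with a longest identical run of 53 bases, and the sources used here do not say how reads matching both were counted. KCS2 also shares 1258 exon bases with AT1G04247, a long non-coding RNA gene on the other strand that had 2.46 to 3.14 CPM in the mutant and 3.03 to 4.47 CPM in WT. Without strand, reads of that pair cannot be told apart. Per kilobase of exon, the ratio of KCS2 to KCS20 was 0.209, 0.173 and 0.187 in the mutant and 0.153, 0.163 and 0.131 in WT. The ratio was higher in all 3 mutant libraries than in any WT library, by 0.35 on the log2 scale. An exact two-sided permutation test gave p = 0.1, the smallest that 3 against 3 libraries allow, and 0.3 after adjustment over 6 pairs of relatives compared, so no difference between the responses of KCS2 and KCS20 was established.

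Most wax- and cuticle-type synthases fell, and KCS6 by the most. KCS6 (AT1G68530, also CER6, chromosome 1, 25712414 to 25715024, minus strand, 1 exon), the main condensing enzyme of shoot wax, had 4.93, 6.89 and 9.48 CPM in the mutant and 19.7, 23.5 and 18.6 CPM in WT. The mutant libraries spread widely, and all lay far below WT. Its level was 34.7% of WT (log2 fold change -1.53, SE 0.21, adjusted p = 0.00244). KCS5 (AT1G25450), the closest relative of KCS6, had 6.16, 5.96 and 5.51 CPM in the mutant and 9.61, 10.2 and 11.6 CPM in WT. It fell to 56.4% of WT, with no overlap (log2 fold change -0.83, SE 0.13, adjusted p = 0.00175). The ratio of KCS5 to KCS6 per kilobase was 1.55, 1.07 and 0.722 in the mutant and 0.607, 0.536 and 0.772 in WT, which overlapped (exact permutation p = 0.2, adjusted 0.3). This test cannot give a p below 0.1 with 3 against 3 libraries, so it could not decide whether the ratio differed.

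KCS1 (AT1G01120, chromosome 1, 57164 to 59215), a broadly used synthase with a role in wax, had 85.3, 81.5 and 92.9 CPM in the mutant and 111, 113 and 120.2 CPM in WT. It fell to 75.6% of WT with no overlap (log2 fold change -0.40, SE 0.07, adjusted p = 0.00411). KCS10 (AT2G26250, also FIDDLEHEAD, chromosome 2, 11170416 to 11173278), which keeps epidermal surfaces from fusing, had 31.1, 27.8 and 28.9 CPM in the mutant and 42.0, 42.5 and 45.9 CPM in WT. It fell to 67.4% of WT and had the smallest adjusted p of the 30 genes (log2 fold change -0.57, SE 0.08, adjusted p = 0.000639). KCS3 (AT1G07720), whose protein is reported to bind and restrain KCS6, had 1.72, 2.43 and 2.37 CPM in the mutant and 4.38, 3.01 and 4.83 CPM in WT. It fell by 0.90 on the log2 scale (SE 0.23, adjusted p = 0.0315), from few counts, 281 over the mutant libraries and 401 over the WT libraries. The KCS3 call ended without myb68 myb84 1 (adjusted p = 0.112), 2 (0.062) or 3 (0.0728) and without WT 1 (0.125) or WT 3 (0.0777), and its log2 fold change with a library left out ran from -1.07 to -0.76.

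The other members of this class did not pass. KCS12 (AT2G28630) had 7.22, 9.61 and 5.60 CPM in the mutant and 12.5, 14.0 and 8.69 CPM in WT, so the groups overlapped (log2 fold change -0.68, SE 0.22, adjusted p = 0.0906). It passed as lower with DESeq2 (adjusted p = 0.0219), limma-voom (0.0324) and the replicate block (0.00513), and when WT 3 (0.0163) or myb68 myb84 2 (0.0279) was left out. KCS16 (AT4G34250), a synthase of trichome wax, had 6.58, 5.46 and 6.52 CPM in the mutant and 6.47, 7.57 and 8.13 CPM in WT (log2 fold change -0.24, 95% interval -0.56 to 0.078, adjusted p = 0.378). KCS13 (AT2G46720, also HIC), known from stomatal patterning, had 4, 2 and 2 counts in the mutant and 8, 0 and 0 counts in WT, and was not tested. Of 8 genes in the class 7 were tested and 5 fell, with a median log2 fold change of -0.68. For 5 of the 7 the groups did not overlap and the mutant was lower, beside 13.2% of all genes tested. The difference in medians between the wax- and suberin-type classes was not tested.

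Of the 5 shoot epidermis markers, 3 were called lower and 0 higher, beside 3.65% lower and 4.66% higher of all genes tested. The 5 markers (ATML1, PDF2, PDF1, LTP1 and LTP2) summed to 79.2, 87.5 and 90.3 CPM in the mutant and 127, 144 and 148 CPM in WT, and 0 of them was at zero in all libraries. LTP1, a lipid transfer protein gene of the epidermis, had 2.99, 2.87 and 4.97 CPM in the mutant and 16.7, 14.8 and 10.8 CPM in WT (log2 fold change -1.95, adjusted p = 0.000653). PDF1 and LTP2 also fell, by 0.70 and 0.61 on the log2 scale, while ATML1 (-0.46) and PDF2 (-0.46) did not pass (adjusted p = 0.134 and 0.201). The part of these markers in the fall of the wax- and cuticle-type genes was not tested. The 6 green shoot markers went the other way, and 4 of them were called higher. The 6 endodermal markers, led by CASP1, summed to 168, 147 and 163 CPM in the mutant and 172, 159.7 and 151 CPM in WT. Of these 6, MYB36, a regulator of endodermal differentiation, was called higher, at 30.2 CPM in the mutant and 21.2 CPM in WT (log2 fold change 0.52, adjusted p = 0.00206), and the 5 CASP genes did not pass.

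**Figure D2:**
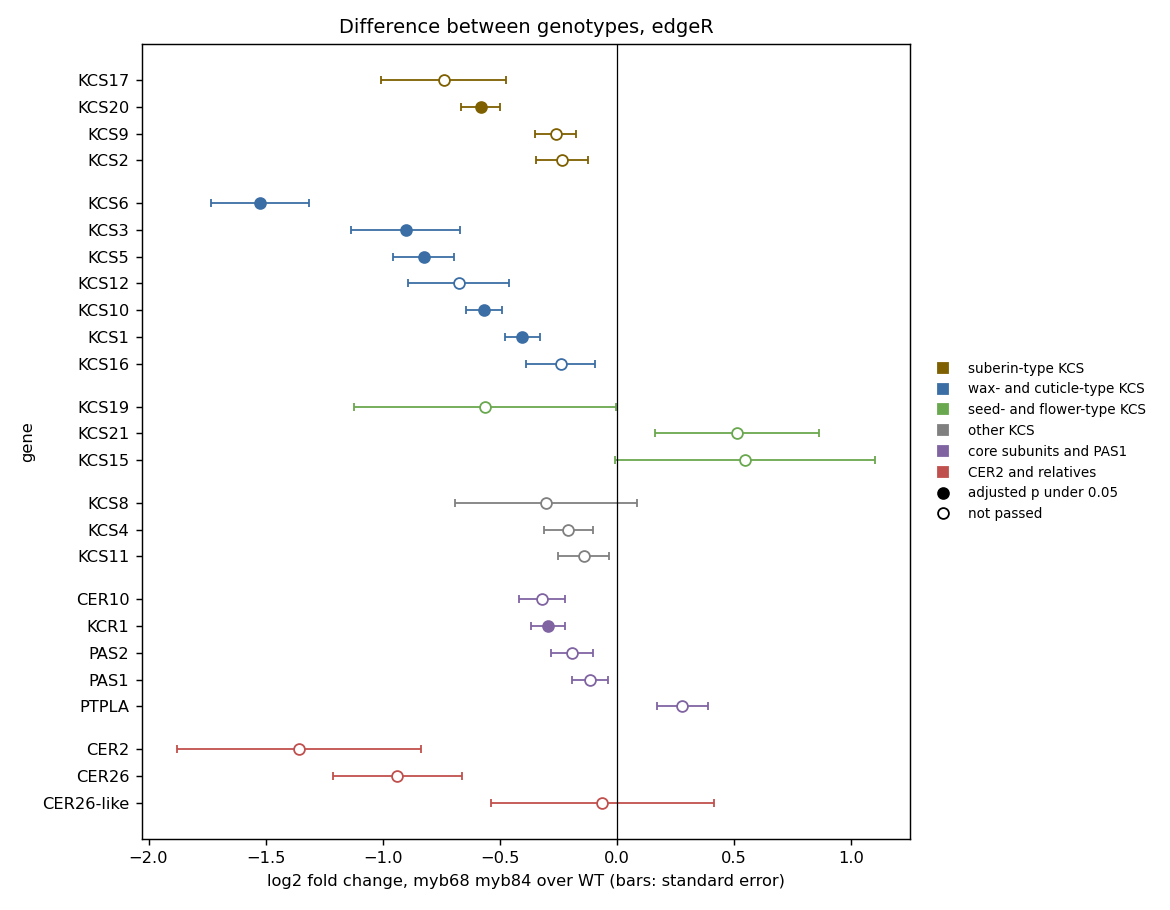
Log2 fold change, myb68 myb84 over WT, of each tested gene with its standard error, grouped by class, filled where the adjusted p is under 0.05. KCS6, at -1.53, lies farthest left, and the filled points are all left of 0.

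The seed- and flower-type synthases were undetected or low in both genotypes. KCS18 (AT4G34520, also FAE1), which elongates the fatty acids of seed oil, KCS7 (AT1G71160) and KCS14 (AT3G10280) had 0 counts in all 6 libraries. A count of 0 allows at most 3 counts, which is 0.0535 CPM in the deepest library and 0.152 CPM in the shallowest. Most low counts in these libraries were even numbers, and if both reads of a pair were counted, which the sources used here do not say, this limit would be higher. KCS18 starts 442 bases after the end of KCS17 on the same strand of chromosome 4, and KCS17 was detected in every library. KCS21 (AT5G49070) had 57, 28 and 68 counts in the mutant and 53, 16 and 15 counts in WT (log2 fold change 0.51, SE 0.35, adjusted p = 0.438). KCS19 (AT5G04530) had 14, 12 and 24 counts in the mutant and 32, 24 and 2 counts in WT (adjusted p = 0.620). KCS15 (AT3G52160) had 12, 18 and 20 counts in the mutant and 10, 6 and 9 counts in WT (adjusted p = 0.628). All 3 overlapped between the genotypes, and the intervals were wide, from -0.25 to 1.27 on the log2 scale for KCS21. KCS15 shares 358 exon bases with AT3G52155 on the other strand, which averaged 8.55 CPM in the mutant and 7.62 CPM in WT. KCS15 itself averaged 0.404 CPM in the mutant and 0.293 CPM in WT. Without strand, reads in the shared bases cannot be told apart, so part of its counts may belong to AT3G52155. KCS14 shares 99.0% of its aligned coding bases with KCS13, including an identical run of 347 bases, and the counting of reads that match both is not described in the labels.

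The synthases with no settled class did not pass. KCS11 (AT2G26640) had 18.2, 17.2 and 16.95 CPM in the mutant and 20.4, 16.2 and 21.1 CPM in WT (log2 fold change -0.14, 95% interval -0.38 to 0.095, adjusted p = 0.503). KCS4 (AT1G19440) had 15.5, 13.8 and 14.1 CPM in the mutant and 17.9, 14.9 and 17.2 CPM in WT (log2 fold change -0.21, 95% interval -0.44 to 0.022, adjusted p = 0.280). Both overlapped between the genotypes. KCS8 (AT2G15090) had 0.589, 2.06 and 1.75 CPM in the mutant and 2.12, 1.67 and 1.52 CPM in WT, with the widest spread in the mutant (adjusted p = 0.715).

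Seen as a family, few synthases made up most of the KCS transcript. Per kilobase of exon, KCS1 had 42.2 ± 2.83 CPM in the mutant and 55.9 ± 2.37 CPM in WT, and KCS20 had 32.9 ± 3.26 CPM in the mutant and 49.4 ± 3.31 CPM in WT (SD, n = 3 each). KCS10 was next, at 12.97 ± 0.739 CPM per kilobase in the mutant and 19.3 ± 0.924 in WT. These 3 genes held 66.8% of the KCS total in WT. Below them in WT came KCS9 at 11.2 ± 0.529 and KCS11 at 9.76 ± 1.33 CPM per kilobase, whose spreads overlapped. KCS6 (7.90 ± 0.991), KCS4 (7.63 ± 0.716) and KCS2 (7.33 ± 0.392) could not be ordered beyond their spread, nor could KCS5 (4.97 ± 0.484) and KCS12 (4.78 ± 1.12). KCS2 shares 1258 of its 2044 exon bases with AT1G04247, and how reads in both were counted is not stated. The level of KCS2 per kilobase, its place and its share of the KCS total carry that limit. In the mutant KCS6, at 2.72 ± 0.874 CPM per kilobase, lay within its spread of KCS12 (3.04 ± 0.822), KCS16 (2.94 ± 0.300) and KCS5 (2.79 ± 0.159), while KCS4 (6.62 ± 0.401) and KCS2 (6.23 ± 0.652) were above it.

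The summed KCS level was 132, 129.8 and 141 CPM per kilobase in the mutant libraries and 186, 180.5 and 193 CPM per kilobase in the WT libraries. The mutant mean was 72.0% of the WT mean, and no test was made on this sum. KCS20 and KCS1 supplied 57.7% of the fall (31.5% and 26.2%), KCS10 supplied 12.1% and KCS6, with the steepest fall, 9.91%. Their mean shares of the WT total were 26.45% for KCS20, 29.96% for KCS1, 10.3% for KCS10 and 4.25% for KCS6. The parts of the fall from KCS20, KCS1 and KCS10 thus lay near their parts of the total. As a share of the KCS total, the wax- and cuticle-type class held 50.8%, 50.2% and 50.2% in the mutant and 51.2%, 54.5% and 52.4% in WT. The suberin-type class held 35.6%, 36.5% and 37.6% in the mutant and 37.6%, 36.2% and 37.1% in WT, which overlapped. KCS4, KCS8 and KCS11 together held 12.6%, 12.4% and 11.3% in the mutant and 10.6%, 8.81% and 10.01% in WT.

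**Figure D3:**
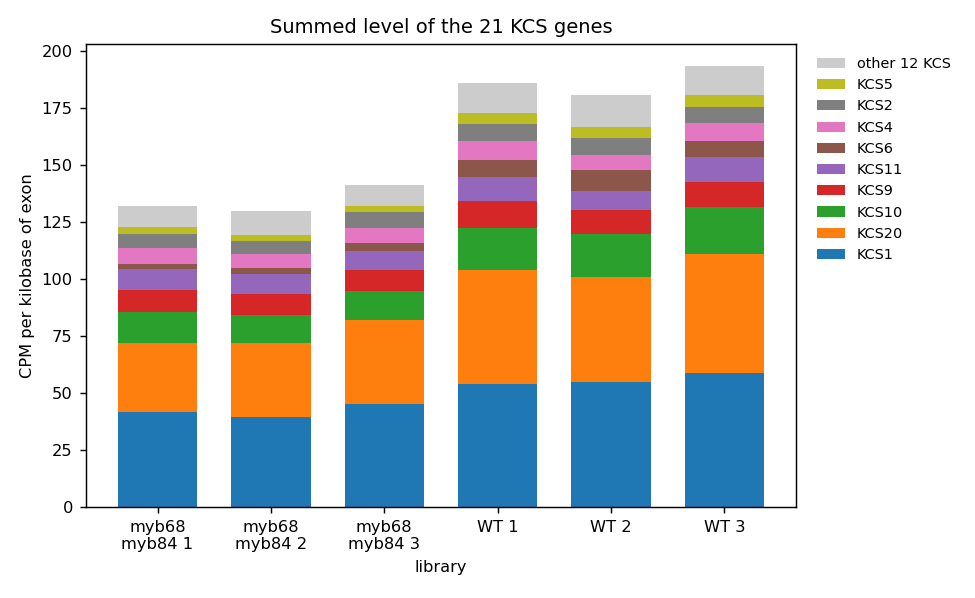
Summed level of the 21 KCS genes in CPM per kilobase of exon, a bar per library, split by gene for the 9 most abundant in WT. The 3 myb68 myb84 bars reach 129.8 to 141 and the 3 WT bars 180.5 to 193, and KCS1 and KCS20 fill the largest parts of every bar.

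Among the shared elongase subunits, KCR1 fell slightly. KCR1 (AT1G67730, chromosome 1, 25391338 to 25393889, plus strand), the ketoacyl reductase of elongation, had 73.4, 69.4 and 80.7 CPM in the mutant and 91.9, 92.0 and 90.5 CPM in WT. The groups did not overlap, at 81.5% of WT (log2 fold change -0.30, SE 0.07, adjusted p = 0.0242). The KCR1 call ended without myb68 myb84 1 (adjusted p = 0.0781), myb68 myb84 2 (0.119) or WT 1 (0.0822), and its log2 fold change with a library left out ran from -0.36 to -0.25. KCR2 (AT1G24470), its relative, had only 2, 4 and 6 counts in the mutant and 7, 4 and 6 counts in WT and was not tested. In CPM it had 0.0491, 0.125 and 0.107 in the mutant and 0.135, 0.152 and 0.305 in WT, which did not overlap. KCR2 shares 49 exon bases with AT1G24480 on the other strand, which averaged 0.481 CPM in the mutant and 0.547 CPM in WT. It shares 62 with AT1G24475, also on the other strand, which had 0 counts in all libraries.

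The other subunits did not pass. CER10 (AT3G55360), the enoyl reductase, which shares 27 exon bases with AT3G55350 on the other strand, had 39.2, 34.3 and 41.9 CPM in the mutant and 49.2, 41.9 and 53.3 CPM in WT, with the highest mutant library just above the lowest WT library (log2 fold change -0.32, SE 0.10, adjusted p = 0.0673). It passed as lower without WT 2 (adjusted p = 0.0244), in DESeq2 (0.0481), with no low-count filter (0.0496) and with the replicate block (0.0124). PAS2 (AT5G10480), the dehydratase, had 28.3, 27.9 and 31.7 CPM in the mutant and 34.7, 30.02 and 35.9 CPM in WT (log2 fold change -0.19, 95% interval -0.39 to 0.0022, adjusted p = 0.232). PTPLA (AT5G59770), a relative of PAS2, was 1 of the 3 tested genes with a positive log2 fold change, with 19.4, 23.1 and 20 CPM in the mutant and 16.6, 19.2 and 15.5 CPM in WT. Its groups did not overlap, and the log2 fold change of 0.28 did not pass (adjusted p = 0.148). The ratio of PAS2 to PTPLA per kilobase was 1.43, 1.18 and 1.55 in the mutant and 2.04, 1.53 and 2.27 in WT, which overlapped (exact permutation p = 0.2, adjusted 0.3). Here too the smallest p possible was 0.1, so the test could not decide. PAS1 (AT3G54010), an immunophilin-like protein that binds the elongase subunits, had 90.8, 77.1 and 87.7 CPM in the mutant and 90.7, 91.3 and 95.4 CPM in WT (log2 fold change -0.12, 95% interval -0.28 to 0.047, adjusted p = 0.412).

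CER2 and its relatives, which carry elongation by KCS6 to the longest wax chains, were low in both genotypes. CER26 (AT4G13840) had 1.37, 1.78 and 1.16 CPM in the mutant and 3.24, 1.98 and 2.90 CPM in WT. The groups did not overlap, and the log2 fold change of -0.94 (SE 0.27) did not pass (adjusted p = 0.0535). It passed as lower without WT 2 (adjusted p = 0.0327), in DESeq2 (0.0356), in limma-voom (0.0382), with no low-count filter (0.0406), with upper-quartile scaling (0.0479) and with counts halved (0.0398). CER2 (AT4G24510) had 4, 8 and 22 counts in the mutant and 40, 17 and 10 counts in WT. In CPM the CER2 groups did not overlap, at 0.0982, 0.250 and 0.392 in the mutant and 0.772, 0.647 and 0.508 in WT (log2 fold change -1.36, SE 0.52, adjusted p = 0.139). CER2 shares exon bases with ATR1 (96 bases), an abundant gene on the other strand, and with AT4G07275 (316 bases), which had 0 counts in all libraries. CER26-like (AT3G23840) had 18, 18 and 22 counts in the mutant and 32, 14 and 4 counts in WT (adjusted p = 0.956).

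All 14 genes of acyl supply, a list of genes that make or activate fatty acids, were tested. Of these, 3 fell and 0 rose, with a median log2 fold change of -0.11. Among all genes tested, 3.65% were called lower. LACS2, an acyl-CoA synthetase of cutin and suberin precursors, had 32.3, 29.6 and 36.2 CPM in the mutant and 42.8, 38.9 and 45.3 CPM in WT (log2 fold change -0.37, adjusted p = 0.0234). KAS1, a plastid condensing enzyme, had 68.0, 61.6 and 65.2 CPM in the mutant and 86.5, 75.3 and 89.0 CPM in WT (log2 fold change -0.36, adjusted p = 0.0127). LACS1, an acyl-CoA synthetase of wax synthesis, had 4.61, 4.93 and 5.13 CPM in the mutant and 6.81, 7.27 and 7.01 CPM in WT (log2 fold change -0.52, adjusted p = 0.0373). None of the 3 genes overlapped between the genotypes. With a library left out, the log2 fold changes ran from -0.56 to -0.48 for LACS1, from -0.45 to -0.30 for LACS2 and from -0.43 to -0.32 for KAS1, all with fewer samples in the fit. The call of LACS1 ended without any 1 of the 6 libraries (adjusted p up to 0.114). That of LACS2 ended without myb68 myb84 1 or 2 or WT 1 or 3 (up to 0.108), and that of KAS1 without myb68 myb84 2 or 3 or WT 1 (up to 0.0668). The list had 0 calls without myb68 myb84 2 or WT 1, and 1 without myb68 myb84 1, myb68 myb84 3 or WT 3.

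Of 11 tested genes that modify or export the chains for suberin, 9 fell and 0 rose, beside 3.65% called lower of all genes tested. The 11 log2 fold changes ran from -0.62 to -0.18, with a median of -0.48. CYP86A1, a fatty acid hydroxylase of root suberin, had 154, 139 and 166 CPM in the mutant and 234, 216 and 219.8 CPM in WT (log2 fold change -0.55, adjusted p = 0.00108). The reductase gene FAR1 had 74.7, 81.2 and 80.8 CPM in the mutant and 113, 110.3 and 107 CPM in WT (log2 fold change -0.48, adjusted p = 0.000804). Its relatives FAR4 and FAR5, which with FAR1 make the fatty alcohols of suberin, fell by 0.61 and 0.62 on the log2 scale (adjusted p = 0.00322 and 0.00288). FACT, which joins caffeate to such alcohols, and GPAT5, an acyltransferase of suberin, fell by 0.46 and 0.50 (adjusted p = 0.00274 and 0.0104). The GPAT5 call ended without myb68 myb84 1 (adjusted p = 0.0505) or 2 (0.0518), and the list had 5 calls without myb68 myb84 1 and 5 without myb68 myb84 2. ABCG20, ABCG6 and CYP86B1 were also called (adjusted p = 0.0499, 0.0422 and 0.0209). The ABCG20 call ended without any 1 of the 6 libraries, and that of ABCG6 without any but myb68 myb84 3. With all libraries, the ABCG20 call also ended in limma-voom (adjusted p = 0.0533) and the ABCG6 call with no low-count filter (0.0746). That of CYP86B1 ended without myb68 myb84 1 or 2 or WT 2 or 3.

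Of 6 tested genes of wax use and export, CER1, ABCG12 and LTPG1 fell and 0 rose, with a median of -0.50. The share called lower over all genes tested was 3.65%. CER1, of alkane synthesis, had 1.74, 2.37 and 5.19 CPM in the mutant and 12.8, 9.55 and 14.9 CPM in WT (log2 fold change -1.96, adjusted p = 0.0341). ABCG12, a wax exporter, fell by 0.49 (adjusted p = 0.0276), and LTPG1, a surface-anchored lipid transfer protein, by 0.51 (adjusted p = 0.0107). The list had 0 calls without myb68 myb84 2, and 1 without WT 1 or WT 3. The CER1 call ended without myb68 myb84 2 or any 1 WT library (adjusted p up to 0.125) and with no low-count filter (0.0908). The ABCG12 call ended without myb68 myb84 1 or 2 or WT 1 or 3 (up to 0.102), and the LTPG1 call without myb68 myb84 2 (0.0515).

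Of 11 sphingolipid genes tested, 1 fell and 0 rose, with a median of -0.046. Over all genes tested, 8.30% were called in either direction and 3.65% were called lower. SBH2, a long-chain base hydroxylase, had 16.96, 17.3 and 17.1 CPM in the mutant and 24.3, 24.0 and 21.1 CPM in WT (log2 fold change -0.44, adjusted p = 0.0104, and 0.0587 without WT 1). SBH1, its relative, named after its values were seen, passed as higher when WT 2 was left out and in no other alternative (log2 fold change 0.30, adjusted p = 0.043). No test was made of the differences between these lists.

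Known regulators of wax and elongation genes showed no call. Of 9 listed, 4 had enough counts to be tested. edgeR, DESeq2 and limma-voom each called 0 of them, and 0 had an unadjusted p under 0.05. With edgeR, 8.30% of all genes tested were called. DEWAX, a repressor of wax genes, had 252, 359 and 279 CPM in the mutant and 372, 410 and 307 CPM in WT (log2 fold change -0.29, SE 0.14, adjusted p = 0.274). MYB30, an activator of elongation genes, had 5.15, 5.18 and 5.38 CPM in the mutant and 4.88, 5.17 and 6.50 CPM in WT (adjusted p = 0.875).

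**Figure D4:**
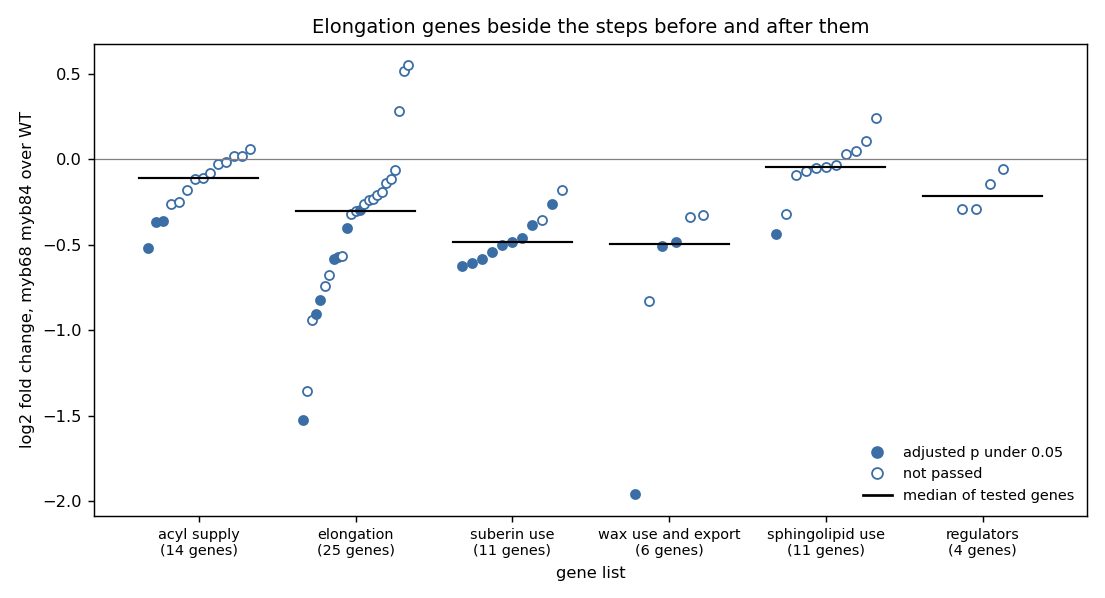
Log2 fold change, myb68 myb84 over WT, of the tested genes of elongation and of the other lists, with a point per gene and a line at the list median. The medians are -0.11 for acyl supply, -0.30 for elongation, -0.48 for suberin use, -0.50 for wax use and export, -0.046 for sphingolipid use and -0.22 for regulators.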

How the data were processed

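RNA-seq counts of 6 libraries were used. Per the submitters' processing notes the authors used Trim Galore, HISAT, featureCounts and DESeq2 with TAIR10, and the deposited values are raw counts per gene identifier. Their versions, the annotation, strandedness and multi-mapping options are not stated in those notes. Groups came from the sample titles.

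The main test was edgeR 4.0.16 (R 4.3.3), quasi-likelihood with robust dispersion, TMM scaling, filterByExpr at a minimum count of 10, genotype as the only term and Benjamini-Hochberg adjustment over 20941 genes. The fit was also run on counts simulated from its own fitted model, with changes placed only in genes above a minimum level. That run could not test whether the model suits these data or the low-count genes. Levels are TMM-scaled CPM, and the SE is the log2 fold change over the square root of F. Intervals are at 95%. The p-values reflect variation among pools of plants. Alternatives were RLE and upper-quartile scaling, no filter, a stricter filter (3 libraries with a CPM of 1 or more), DESeq2 1.42.0, voom in limma 3.58.1, a replicate block, each library left out and, added after seeing the data, counts halved. Paralog pairs were chosen after seeing the data and tested by exact permutation in SciPy 1.17.1.

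The members and lists were chosen with earlier results of these data known. All 30 members are named, with values per library for those called or averaging at least 10 CPM, and up to 6 called genes of each pathway list by adjusted p, or the 2 most abundant where none was called. ABCG20, ABCG6 and CYP86B1 were named beyond this rule because their calls ended in some fits. Positions, exon lengths and upstream sequences came from TAIR10.1, and coding-base identity, used in place of protein identity, from Biopython 1.88 alignments. Library pairs differed beyond sampling noise (chi-square per degree of freedom at least 11.1).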

Additional observations from a re-analysis of the deposited data

How the results depend on the processing

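Of the 25 tested members, 20 stayed on the same side of the threshold under all alternatives that gave them an adjusted p, among them the calls of KCS20, KCS1, KCS5, KCS6 and KCS10. The calls of KCS3 and KCR1 ended in some fits with a library left out, and KCS12, CER10 and CER26 passed in some alternatives, as given with each gene. The cause was not tested. With a library left out, members called lower numbered 5 to 9 against 7, and members called higher 0. The same fits gave 0 to 3 lower for acyl supply (against 3), 5 to 8 for suberin use (against 9), 0 to 3 for wax use (against 3), and 0 to 1 lower (against 1) and 0 to 1 higher (against 0) for sphingolipid use. Calls of members moved to 10 with DESeq2, 9 with limma-voom, 9 with no filter, 8 with upper-quartile scaling, 8 with counts halved and 7 with RLE scaling or the stricter filter. The sign of the log2 fold change turned in some alternative for 2 members, KCS8 and CER26-like, neither of them called.

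The samples share only a replicate number. Same-numbered libraries correlated in their deviations from the group means at -0.00589, 0.0244 and 0.0837, and 2 of 6 libraries correlated best with their own number. With the number as a block, 9 members were called lower and 0 higher. Depth limits the members under about 1 CPM, where counts are few.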

Other observations

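Low counts in the files were mostly even numbers. Of genes with 1 to 40 counts in a library, 77.2%, 75.8% and 75.6% had an even count in myb68 myb84 1, 2 and 3, and 73.7%, 77.6% and 77.5% in WT 1, 2 and 3. In WT 3, for example, 168 genes had 1 count, 856 had 2, 103 had 3 and 480 had 4. Of the 39 values between 1 and 40 that the elongation genes have, 35 were even. The sources used here do not say whether both reads of a pair were counted, and the cause was not tested. The limit of 3 counts for a value of 0 covers counting error only. With counts halved and rounded up, the same fit called 8 elongation genes lower, CER26 (adjusted p = 0.0398) beside the 7.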
